A study of Homo sapiens with 12 samples.

Results

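NRF2 target genes and the genes of the glutathione and thioredoxin systems were examined in SW480 cells, a human colorectal adenocarcinoma line, after loss or inhibition of the mitochondrial aldehyde dehydrogenase ALDH1B1. The set holds 43 named genes, of the 33331 genes listed in the deposited count tables, and a gene was taken where its symbol was in the list. All 43 were listed in both tables and all 43 passed the filter on low counts, so none was left out of a test. One symbol, SOD2, is carried by 2 gene IDs, and the values given are those of ENSG00000112096, the other ID having few reads.

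Polyadenylated RNA was sequenced in 4 groups of 3 libraries, all of SW480 cells in RPMI medium with 10% FBS. A single ALDH1B1 knockout clone carried an ALDH1B1 construct in one group and an EGFP construct, the fluorescent protein control, in another. Parental cells, which keep their own ALDH1B1, were held in DMSO, the solvent, or in 2 µM of an inhibitor selective for ALDH1B1 for 24 h. The knockout comparison is EGFP minus ALDH1B1 within the clone, and the inhibitor comparison is inhibitor minus DMSO within the parental line. The series describes its replicates as biological, so the p-values rest on variation among cultures, here of 1 clone and 1 line.

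NRF2, the product of NFE2L2, is a transcription factor that KEAP1 captures for degradation by the proteasome. Oxidants and electrophiles such as reactive aldehydes modify KEAP1, and NRF2 then accumulates and binds antioxidant response elements beside genes for quinone reduction, glutathione synthesis and NADPH supply. Glutathione and thioredoxin are the cell's main thiol reductants: the first serves glutathione peroxidases, transferases and glutaredoxins, and the second serves the peroxiredoxins, both fed by NADPH.

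Libraries held 32617089 to 39018926 counted reads. No 2 libraries of a group agreed within sampling noise, since their chi-square per degree of freedom ran from 3.01 to 14.5. EGFP replicate 3 stood apart in the clone, with values of 9.85 and 14.5 against replicates 1 and 2, whose own value was 3.77, and DMSO replicate 2 stood apart in the parental line, with 9.54 and 6.47 against 3.50. ALDH1B1 itself was at 101 ± 3.2 CPM in the clone with its construct and 18.4 ± 0.44 CPM with EGFP, a log2 fold change of -2.44 ± 0.05 (SE), and at 49.5 ± 3.8 CPM in DMSO and 50.4 ± 0.53 CPM with inhibitor (SD, n = 3). Levels are in CPM, reads scaled to the size of the library, on 1 scale set over all 12 libraries. Keratin genes KRT8, KRT18 and KRT19 were high in every group, between 629 and 4402 CPM as group means. KRT20, a further keratin among the epithelial markers, was low in every group, between 0.113 and 0.231 CPM as group means. Other epithelial markers differed more between clone and line. EPCAM was at 135 CPM in the clone with ALDH1B1 and 767 CPM in DMSO, and CDH1 at 4.89 and 39.0 CPM. VIL1, which encodes the microvillus protein villin, was at 0.145 and 344 CPM in the same groups. CDX2, an intestinal transcription factor, went the other way, higher than in DMSO (25.2 CPM) by 0.99 on the log2 scale in the clone with ALDH1B1 and by 1.28 with EGFP (61.3 CPM). Within the clone KRT8, KRT18 and KRT19 were lower with EGFP, by log2 fold changes of -0.23, -0.16 and -0.46, and CDX2 and VIL1 higher, by 0.31 and 1.72. VIL1 was also higher with inhibitor, by 0.20 (adjusted p = 0.020). Among fibroblast markers COL1A1 was at 15.3 and 14.8 CPM in the clone and 4.44 CPM in DMSO, and PDGFRB at 6.12 CPM with ALDH1B1, 11.5 CPM with EGFP and 1.00 CPM in DMSO, higher with EGFP by 0.93 ± 0.12 (adjusted p = 1.2e-04), while COL3A1 and DCN stayed under 0.1 CPM as group means. What part these markers have in the other results was not tested. The leukocyte markers CD3E and CD68 stayed under 0.1 CPM as group means, and LYZ was at 0.272 to 0.429 CPM.

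In the knockout comparison 14 of the 43 genes passed an adjusted p of 0.05, 6 of them higher and 8 lower with EGFP than with ALDH1B1 (edgeR quasi-likelihood test, Benjamini-Hochberg adjustment over all 17404 genes tested). That is 32.6% of the set, against 17.6% of all genes tested, and against 8.36% and 9.22% of all genes called higher and lower. Every change was below 2-fold, the log2 fold changes running from -0.39 to 0.39. Their median was -0.03, beside 0.01 over all genes, and the median size was 0.13, beside 0.14. Groups did not overlap for 22 of the 43 genes, or for 35.5% of all genes with CPM in both tables. The genes that rose were HMOX1, PIR, GSS, GPX8, SLC48A1 and CAT, and those that fell were TXN, GLRX2, PRDX1, PRDX4, GPX1, GSTO1, GSR and SOD1. Without EGFP replicate 3 the set had 21 calls, 10 higher and 11 lower, beside 22.2% of all genes. Without ALDH1B1 replicate 1, 2 or 3 or EGFP replicate 1 it had 5 lower. Calls in either direction then covered 9.30%, 7.67%, 12.8% and 10.8% of all genes, in that order. With a trend over gene length removed, 5 were higher and 12 lower, beside 22.1% of all genes called. In bulk RNA, less RNA per cell and fewer cells that express a gene cannot be told apart.

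In the inhibitor comparison 3 of the 43 genes passed, GPX2 and TKT higher and TXN lower with inhibitor. That is 6.98% of the set against 3.99% of the 17848 genes tested, with 1.89% of all genes called higher and 2.10% lower. The median log2 fold change was 0.05, beside -0.00 over all genes, with a range from -0.21 to 0.43. Groups did not overlap for 18 genes of the set, or for 23.6% of all genes. Without DMSO replicate 3 or inhibitor replicate 3 edgeR called 0 of the 43, beside 0.937% and 0.971% of all genes. Without DMSO replicate 2 it called 1, beside 2.61% of all genes. DESeq2 called 6 on all libraries, beside 5.86% of all genes. TXN was the one gene of the set called in both comparisons, and it was lower in each.

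**Figure D1:**
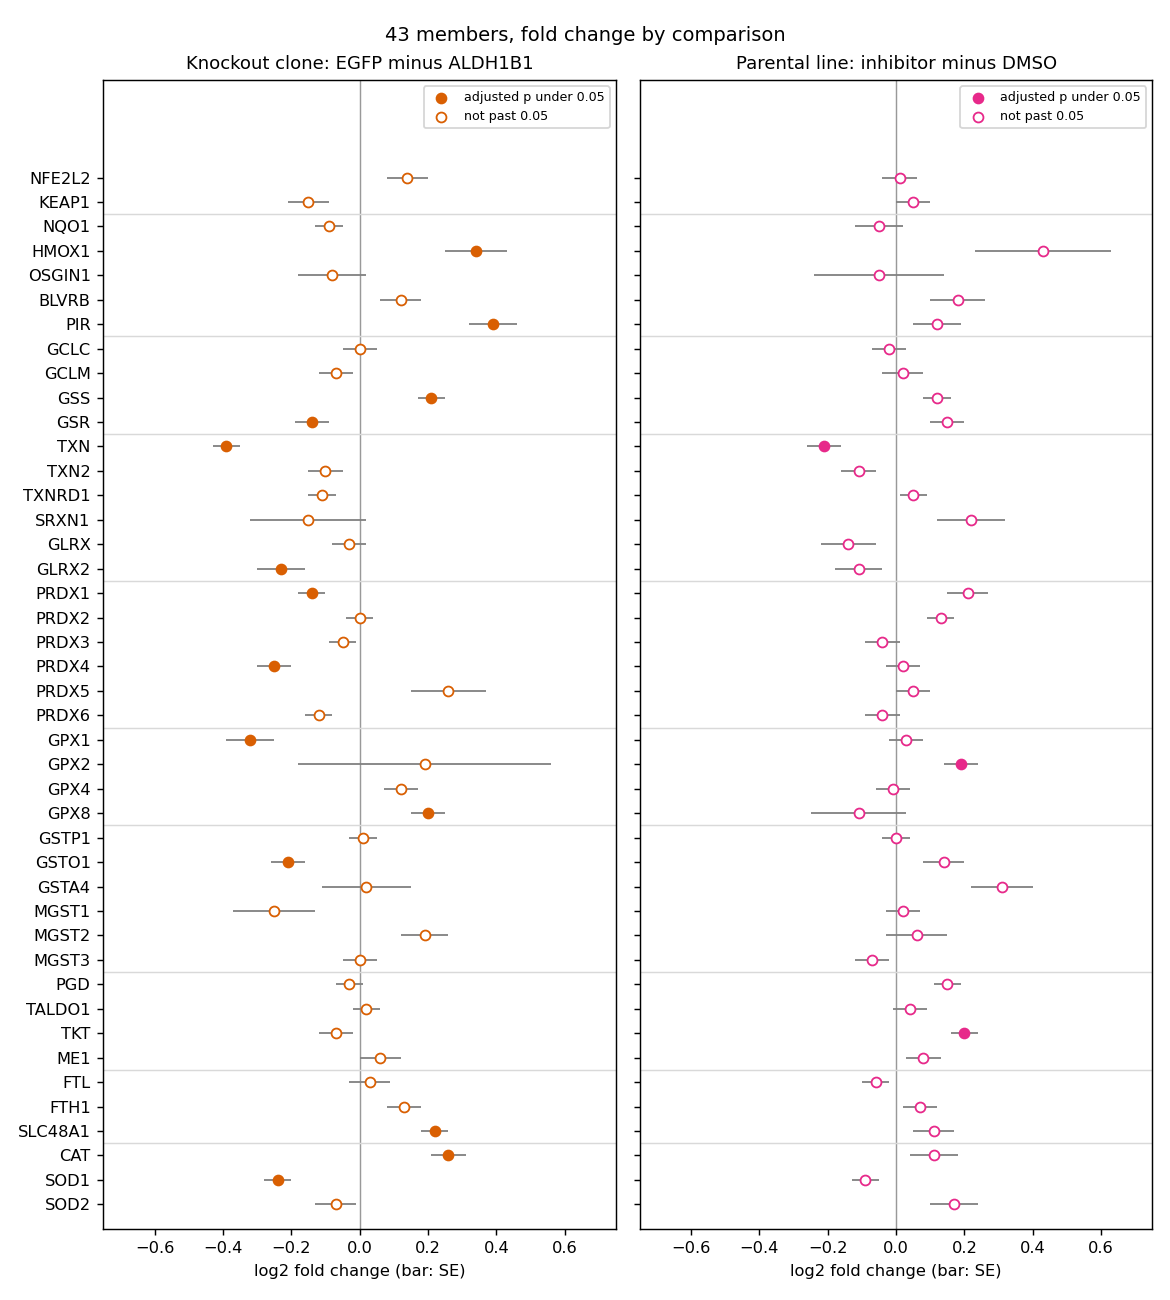
Log2 fold change of each of the 43 genes, with its standard error as a bar, in the knockout comparison (left) and the inhibitor comparison (right), ordered by role with grey lines between roles. Filled points passed an adjusted p of 0.05: 14 genes in the knockout comparison and 3 in the inhibitor comparison, all between -0.39 and 0.39.

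The regulators came first in role. NFE2L2 was at 85.6, 82.8 and 92.9 CPM in the clone with ALDH1B1 and at 91.2, 90.9 and 103 CPM with EGFP, and at 97.3, 96.6 and 98.7 CPM in DMSO and 93.2, 101 and 103 CPM with inhibitor. These groups overlapped in both comparisons. The log2 fold changes were 0.14 ± 0.06 (SE, adjusted p = 0.13) for the knockout and 0.01 ± 0.05 (adjusted p = 0.96) for the inhibitor. For the knockout NFE2L2 passed under 1 of 13 alternative settings, the fit with replicate number as a block (adjusted p = 0.04). KEAP1 was at 131, 125 and 118 CPM with ALDH1B1 and 114, 119 and 103 CPM with EGFP. Its log2 fold change of -0.15 ± 0.06 had an adjusted p of 0.098. KEAP1 passed under 5 of 13 alternative settings, with an adjusted p of 0.0065 to 0.035. These included the fit with the length trend removed (0.018) and that without EGFP replicate 2 (0.035). With inhibitor KEAP1 was at 121, 124 and 115 CPM, against 111, 121 and 112 CPM in DMSO, a log2 fold change of 0.05 ± 0.05 (adjusted p = 0.62).

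Of the 5 genes grouped with the quinone and haem enzymes, 2 rose in the knockout comparison and none passed in the inhibitor comparison. PIR encodes pirin, an iron-binding nuclear protein and a known NRF2 target. It was at 21.4, 21.3 and 20.8 CPM in the clone with ALDH1B1 and at 27.6, 25.1 and 29.5 CPM with EGFP. All EGFP libraries were above all ALDH1B1 libraries, and PIR rose by 0.39 ± 0.07 on the log2 scale (adjusted p = 0.0015), a call kept under all 13 alternatives. In the parental line PIR was at 28.3, 29.1 and 29.0 CPM in DMSO and 31.8, 34.0 and 29.1 CPM with inhibitor, with a log2 fold change of 0.12 ± 0.07 (adjusted p = 0.34).
HMOX1 encodes haem oxygenase 1, which opens the haem ring to biliverdin, iron and carbon monoxide. Its level was 9.74, 10.2 and 9.84 CPM with ALDH1B1 and 13.0, 13.6 and 11.0 CPM with EGFP. The groups did not overlap and HMOX1 rose by 0.34 ± 0.09 (adjusted p = 0.021), but the adjusted p was 0.067 to 0.087 without any 1 of the ALDH1B1 libraries or without EGFP replicate 1 or 2. With inhibitor it was at 3.50, 3.59 and 4.53 CPM against 3.56, 1.96 and 2.94 CPM in DMSO. Those groups overlapped, and the log2 fold change of 0.43 ± 0.20 did not pass (adjusted p = 0.25).
NQO1, the NAD(P)H quinone reductase often used as a readout of NRF2, was at 268, 276 and 265 CPM with ALDH1B1 and 251, 246 and 256 CPM with EGFP. The EGFP libraries were lower, without overlap, by a log2 fold change of -0.09 ± 0.04 that did not pass (adjusted p = 0.15). That adjusted p was 0.048 without EGFP replicate 3 and 0.041 with the length trend removed. In DMSO NQO1 was at 23.3, 24.2 and 24.9 CPM and with inhibitor at 22.1, 24.8 and 23.9 CPM, a log2 fold change of -0.05 ± 0.07 (adjusted p = 0.77). About 19.7% of its principal transcript is shared with annotated genes, the longest an antisense one, and no source used here says whether counting used the strand. BLVRB, a biliverdin reductase, and OSGIN1, a p53- and NRF2-linked growth inhibitor, did not pass in either comparison, with log2 fold changes of 0.12 and -0.08 for the knockout and 0.18 and -0.05 for the inhibitor. Without EGFP replicate 3 BLVRB had an adjusted p of 0.035 in the knockout comparison.

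The promoters of PIR and TXN are shown because these called genes are among those with the smallest p in the set. Both are 300 bases from RefSeq on GRCh38.p14, 250 before the start of transcription and 50 from it on, read 5′ to 3′ on the gene's minus strand, at chrX:15493284-15493583 for PIR and chr9:110256458-110256757 for TXN. Capitals mark matches to TGACNNNGC, the core of the antioxidant response element, searched on both strands.
PIR: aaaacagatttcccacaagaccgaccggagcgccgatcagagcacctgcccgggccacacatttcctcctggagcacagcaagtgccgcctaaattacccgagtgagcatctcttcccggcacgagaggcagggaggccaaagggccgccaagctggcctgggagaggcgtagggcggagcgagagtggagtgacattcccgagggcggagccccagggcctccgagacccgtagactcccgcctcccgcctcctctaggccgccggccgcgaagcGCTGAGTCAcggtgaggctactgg
TXN: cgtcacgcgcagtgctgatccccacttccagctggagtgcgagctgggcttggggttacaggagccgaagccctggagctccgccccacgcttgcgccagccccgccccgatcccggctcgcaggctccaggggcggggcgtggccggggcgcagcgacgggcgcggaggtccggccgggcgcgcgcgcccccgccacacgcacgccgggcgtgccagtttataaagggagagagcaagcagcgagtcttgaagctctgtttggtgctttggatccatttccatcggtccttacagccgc
The PIR window holds 1 match, on the other strand, with first and last base 26 and 34 bases after the start of transcription. Read on its own strand that match is TGACTCAGC, which also holds the AP-1 site TGACTCA. The TXN window holds no match, which says only that these letters are not in this window. The core is in 13.3% of the 35116 promoter windows of the RefSeq table.

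Of the 4 genes of glutathione synthesis and reduction, 1 rose and 1 fell in the knockout comparison, and none passed in the inhibitor comparison. GCLC and GCLM encode the catalytic and modifier subunits of glutamate-cysteine ligase, the rate-limiting enzyme of glutathione synthesis. GCLC was at 48.1, 46.8 and 47.1 CPM with ALDH1B1 and 48.3, 47.4 and 45.4 CPM with EGFP, and GCLM at 70.6, 72.1 and 73.6 CPM and 69.5, 69.0 and 66.4 CPM. The log2 fold changes were 0.00 ± 0.05 for GCLC (adjusted p = 0.97) and -0.07 ± 0.05 for GCLM (adjusted p = 0.36). In the parental line GCLC was at 94.4, 97.5 and 94.7 CPM in DMSO and 95.9, 97.6 and 91.4 CPM with inhibitor, and GCLM at 37.7, 37.1 and 38.1 CPM and 38.6, 38.9 and 37.8 CPM. Both overlapped between these groups, with log2 fold changes of -0.02 ± 0.05 (adjusted p = 0.84) and 0.02 ± 0.06 (adjusted p = 0.91). GSS, glutathione synthetase, which adds glycine to the dipeptide made by GCLC and GCLM, was at 169, 177 and 163 CPM with ALDH1B1 and 195, 191 and 200.4 CPM with EGFP. It rose by 0.21 ± 0.04 without overlap (adjusted p = 0.0047). GSR, glutathione reductase, which returns oxidised glutathione to its reduced form, was at 80.6, 85.1 and 82.2 CPM and 74.7, 74.6 and 73.7 CPM. It fell by 0.14 ± 0.05 on the log2 scale (adjusted p = 0.046), a call lost without any 1 of 5 libraries, all but EGFP replicate 3 (adjusted p = 0.073 to 0.21). With inhibitor GSS and GSR were above DMSO without overlap, by 0.12 ± 0.04 (adjusted p = 0.15) and 0.15 ± 0.05 (adjusted p = 0.082).

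Of the 6 thioredoxin and glutaredoxin genes, 2 fell in the knockout comparison and 1 fell with inhibitor, and the medians were -0.13 and -0.11. TXN encodes cytosolic thioredoxin, the small dithiol protein that reduces peroxiredoxins and ribonucleotide reductase. It was at 411, 400.1 and 394 CPM in the clone with ALDH1B1 and at 302, 295 and 316 CPM with EGFP. The groups lay far apart next to their spread, and TXN fell by 0.39 ± 0.04 on the log2 scale, or 23.7% (adjusted p = 4.0e-05, at most 8.8e-04 under the 13 alternatives). In the parental line it was at 241, 239.5 and 241 CPM in DMSO and at 200.3, 218 and 211 CPM with inhibitor. All inhibitor libraries were below all DMSO libraries and TXN fell by 0.21 ± 0.05, or 13.5% (adjusted p = 0.019). That adjusted p was 0.13 without DMSO replicate 3 and 0.079 without inhibitor replicate 3. It was 0.091 once a trend over gene length, taken as summed exons, was removed. The principal TXN transcript has 869 nt, and over the 704 other protein-coding genes under 1000 nt the median log2 fold change with inhibitor was -0.09, against 0.01 over 2000 nt. For the knockout the medians were -0.12 over 674 such genes and 0.02 over 2000 nt. The 11 genes of the set under 1000 nt, TXN among them, had medians of 0.02 with inhibitor and 0.01 for the knockout. Of these 11, 1 was called higher and 1 lower with inhibitor, and 0 higher and 3 lower for the knockout. The TXN effects of knockout and inhibitor differed by -0.21 ± 0.07, which did not pass (adjusted p = 0.075).
TXNRD1, thioredoxin reductase, was at 251, 255 and 260.2 CPM with ALDH1B1 and 232, 231 and 242 CPM with EGFP, and at 205, 213 and 209 CPM in DMSO and 210.5, 224 and 219 CPM with inhibitor. It lay lower in the EGFP libraries without overlap, by a log2 fold change of -0.11 ± 0.04 that did not pass (adjusted p = 0.090). That adjusted p was 0.014 without EGFP replicate 3 and 0.0088 with the length trend removed. The inhibitor log2 fold change was 0.05 ± 0.04 (adjusted p = 0.62). GLRX2, a glutaredoxin of mitochondria and nucleus, was at 22.5, 22.8 and 22.9 CPM with ALDH1B1 and 18.8, 18.7 and 20.5 CPM with EGFP. It fell by 0.23 ± 0.07 (adjusted p = 0.026), a call lost without any 1 of the ALDH1B1 libraries or without EGFP replicate 1 or 2 (adjusted p = 0.068 to 0.099). Its log2 fold change with inhibitor was -0.11 ± 0.07 (adjusted p = 0.41).
SRXN1, sulfiredoxin, which repairs overoxidised peroxiredoxins, was at 15.3, 14.2 and 13.7 CPM with ALDH1B1 and 15.3, 15.4 and 7.91 CPM with EGFP. The low value was EGFP replicate 3. The log2 fold change of -0.15 ± 0.17 (adjusted p = 0.60) became 0.10 without that library, and neither passed. In DMSO SRXN1 was at 11.4, 13.4 and 14.6 CPM and with inhibitor at 16.6, 15.3 and 14.1 CPM, a log2 fold change of 0.22 ± 0.10 (adjusted p = 0.25). Its values are uncertain, since 85% of its principal transcript is shared with another protein-coding gene on the same strand and no counting program is named in the sources used here. TXN2, the mitochondrial thioredoxin, and GLRX, cytosolic glutaredoxin, were lower by -0.10 and -0.03 in the knockout comparison and by -0.11 and -0.14 with inhibitor on the log2 scale, and none of these passed.

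**Figure D2:**
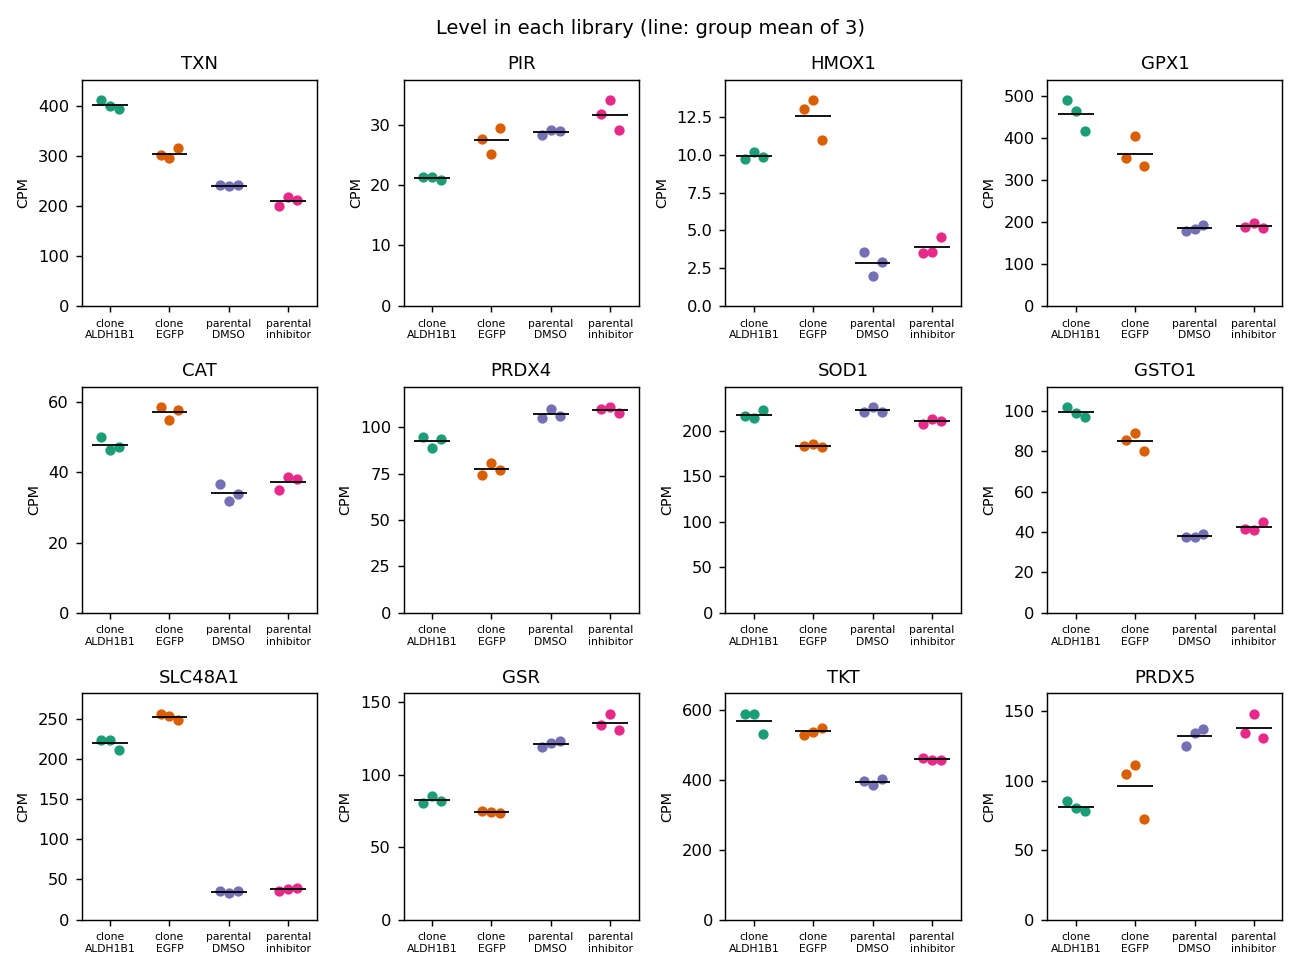
Level in CPM of 12 genes in each of the 12 libraries: the clone with ALDH1B1, the clone with EGFP, the parental line in DMSO and the parental line with inhibitor. Each point is a library and each line the mean of 3; TXN lies between 394 and 411 CPM in the clone with ALDH1B1 and between 295 and 316 CPM with EGFP, while PRDX5 shows 1 EGFP library at 72.4 CPM below the other two at 105 and 111 CPM.

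The 6 peroxiredoxins, thiol enzymes that reduce peroxides with electrons from thioredoxin or, for PRDX6, from glutathione, held 2 that fell in the knockout comparison and none that passed with inhibitor. PRDX4, the peroxiredoxin of the endoplasmic reticulum, was at 95.1, 89.1 and 93.9 CPM with ALDH1B1 and 74.4, 80.6 and 77.3 CPM with EGFP. It fell by 0.25 ± 0.05 without overlap (adjusted p = 0.0035, kept under all 13 alternatives). With inhibitor its log2 fold change was 0.02 ± 0.05 (adjusted p = 0.85). PRDX1, the abundant cytosolic peroxiredoxin and a known NRF2 target, was at 370.1, 374 and 399.7 CPM with ALDH1B1 and 342, 348 and 336 CPM with EGFP. It fell by 0.14 ± 0.04 (adjusted p = 0.036), a call lost without any 1 ALDH1B1 library or without EGFP replicate 1 (adjusted p = 0.057 to 0.13). In the parental line PRDX1 was at 123, 125 and 122 CPM in DMSO and 129.7, 143 and 159.6 CPM with inhibitor. The inhibitor libraries were all higher and spread over a wide range, with a log2 fold change of 0.21 ± 0.06 (adjusted p = 0.069). PRDX1 passed with inhibitor under 5 of 13 alternatives, among them the fit without inhibitor replicate 1 (adjusted p = 0.018) and DESeq2 (0.040). Its principal transcript shares 30.7% of its length with other genes, the longest MMACHC on the opposite strand.
PRDX5, a peroxiredoxin of mitochondria and peroxisomes, was at 85.1, 80.3 and 77.8 CPM with ALDH1B1 and 105, 111 and 72.4 CPM with EGFP. EGFP replicate 3 was below all ALDH1B1 libraries and the other EGFP libraries were above them. The log2 fold change was 0.26 ± 0.11 with all libraries (adjusted p = 0.13) and 0.42 without EGFP replicate 3 (adjusted p = 4.8e-07). With that library kept, PRDX5 also passed without the filter on low counts (adjusted p = 7.7e-04) and with replicate number as a block (0.027). It passed too with that block and the length trend removed (0.039). PRDX2, PRDX3 and PRDX6 had log2 fold changes of 0.00, -0.05 and -0.12 for the knockout and 0.13, -0.04 and -0.04 for the inhibitor, none of which passed. PRDX6 had an adjusted p of 0.044 in the knockout comparison without EGFP replicate 3, and of 0.026 with the length trend removed.

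Glutathione peroxidases reduce hydrogen peroxide and lipid peroxides. GPX1, the cytosolic selenoenzyme, was at 489, 463 and 415 CPM with ALDH1B1 and 351, 404 and 332 CPM with EGFP. The groups spread widely but did not overlap, and GPX1 fell by 0.32 ± 0.07 (adjusted p = 0.0057, kept under all 13 alternatives). With inhibitor its log2 fold change was 0.03 ± 0.05 (adjusted p = 0.77). GPX8, a peroxidase of the endoplasmic reticulum, was at 38.5, 41.7 and 41.6 CPM with ALDH1B1 and 45.2, 46.8 and 46.7 CPM with EGFP. It rose by 0.20 ± 0.05 (adjusted p = 0.022), a call lost without ALDH1B1 replicate 1 or 2 or EGFP replicate 1 or 2 (adjusted p = 0.051 to 0.12) and with the length trend removed (adjusted p = 0.065). GPX2, the gastrointestinal glutathione peroxidase, was at 113, 108 and 109.5 CPM in DMSO and 125, 129 and 127 CPM with inhibitor. It rose by 0.19 ± 0.05 without overlap (adjusted p = 0.036), a call lost without DMSO replicate 2, DMSO replicate 3, inhibitor replicate 3 or the inhibitor library with no number (adjusted p = 0.10 to 0.17). In the clone GPX2 had 13 to 33 reads per library. GPX4, which protects membranes from lipid peroxidation, had log2 fold changes of 0.12 ± 0.05 for the knockout (adjusted p = 0.098) and -0.01 ± 0.05 for the inhibitor (adjusted p = 0.97).

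Of the 6 glutathione transferase genes, GSTO1 alone passed, in the knockout comparison. This omega-class transferase, which also reduces dehydroascorbate, was at 102, 99.1 and 97.0 CPM with ALDH1B1 and 85.8, 89.0 and 80.2 CPM with EGFP. It fell by 0.21 ± 0.05 without overlap (adjusted p = 0.0091, kept under all 13 alternatives), while with inhibitor it was higher than in DMSO by 0.14 ± 0.06 (adjusted p = 0.22). GSTP1, the most abundant transferase of the set, had log2 fold changes of 0.01 ± 0.04 and -0.00 ± 0.04 in the knockout and inhibitor comparisons. GSTA4, which conjugates the lipid aldehyde 4-hydroxynonenal to glutathione, was at 9.92, 11.5 and 11.8 CPM in DMSO and 14.3, 14.1 and 13.2 CPM with inhibitor. These groups did not overlap, and the log2 fold change of 0.31 ± 0.09 had an adjusted p of 0.069; for the knockout it was 0.02 ± 0.13 (adjusted p = 0.93). The microsomal transferases MGST1, MGST2 and MGST3 had log2 fold changes of -0.25, 0.19 and -0.00 for the knockout and 0.02, 0.06 and -0.07 for the inhibitor. Of these MGST2 alone had an adjusted p under 0.05 without EGFP replicate 3, at 0.025.

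NADPH, the electron donor of both systems, is made by PGD in the oxidative pentose phosphate pathway and by ME1, malic enzyme, and TKT and TALDO1 run the sugar exchanges of that pathway's other arm. TKT, transketolase, was at 398, 385 and 403 CPM in DMSO and 462, 458 and 456 CPM with inhibitor. It rose by 0.20 ± 0.04 without overlap (adjusted p = 0.019), a call lost without DMSO replicate 2 or 3 or inhibitor replicate 3 (adjusted p = 0.056 to 0.092). In the clone TKT was at 589, 589 and 532 CPM with ALDH1B1 and 529, 538 and 550.0 CPM with EGFP, groups that overlapped (log2 fold change -0.07 ± 0.05, adjusted p = 0.33). PGD was above DMSO in all inhibitor libraries, by 0.15 ± 0.04, which did not pass (adjusted p = 0.072). The remaining log2 fold changes of PGD, TALDO1 and ME1 ran from -0.03 to 0.08 over both comparisons, and none passed.

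Among genes of iron and haem handling, SLC48A1, a haem transporter of endosomes and lysosomes, was at 224, 223 and 211 CPM with ALDH1B1 and 256, 253 and 249 CPM with EGFP. It rose by 0.22 ± 0.04 without overlap (adjusted p = 0.0029, kept under all 13 alternatives), and its log2 fold change with inhibitor was 0.11 ± 0.06 (adjusted p = 0.35). Its RefSeq promoter (GRCh38.p14, chr12:47772988-47773287, plus strand, 5′ to 3′) is shown as that of another called gene with one of the smallest p, and holds no match to TGACNNNGC.
SLC48A1: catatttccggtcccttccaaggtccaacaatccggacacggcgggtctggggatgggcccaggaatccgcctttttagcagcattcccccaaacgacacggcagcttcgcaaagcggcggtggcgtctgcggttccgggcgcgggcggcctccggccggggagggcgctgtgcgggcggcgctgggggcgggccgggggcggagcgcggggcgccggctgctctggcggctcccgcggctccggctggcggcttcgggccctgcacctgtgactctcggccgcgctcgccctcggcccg
FTL and FTH1, the light and heavy chains of the iron store ferritin, had log2 fold changes of 0.03 ± 0.06 and 0.13 ± 0.05 for the knockout and -0.06 ± 0.04 and 0.07 ± 0.05 for the inhibitor, with no call. Without EGFP replicate 3 FTH1 had an adjusted p of 1.3e-04, at a log2 fold change of 0.20. Both ferritin genes have processed pseudogenes, and 71.6% of the principal FTH1 transcript is shared with other genes, the longest BEST1 on the opposite strand, so their counts are uncertain.
CAT, catalase, which splits hydrogen peroxide in peroxisomes, was at 50.1, 46.5 and 47.2 CPM with ALDH1B1 and 58.6, 55.0 and 57.7 CPM with EGFP. SOD1, the cytosolic copper-zinc superoxide dismutase, was at 216, 214 and 223 CPM and 183, 186 and 182 CPM. Neither gene's groups overlapped: CAT rose by 0.26 ± 0.05 (adjusted p = 0.0035) and SOD1 fell by 0.24 ± 0.04 (adjusted p = 0.0017), calls kept under all 13 alternatives. With inhibitor their log2 fold changes were 0.11 ± 0.07 (adjusted p = 0.40) and -0.09 ± 0.04 (adjusted p = 0.25). SOD2, the mitochondrial manganese enzyme, had -0.07 ± 0.06 and 0.17 ± 0.07 (adjusted p = 0.48 and 0.19).

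The effects of knockout and inhibitor were then set against each other as an interaction over all 12 libraries, which share no controls between the comparisons. One effect is that of a construct in the knockout clone, the other that of 24 h of inhibitor in the parental line. Cell background, duration and mode of ALDH1B1 loss therefore cannot be told apart in this difference. The difference passed for 6 of the 43 genes, or 14.0%, against 5.11% of the 19075 genes tested. All 6 were lower in the knockout than in the inhibitor comparison. Of the 974 genes called over all genes tested, 611 were lower and 363 higher. The largest were -0.38 ± 0.08 for PRDX1 (adjusted p = 0.0097), -0.38 ± 0.08 for GSTO1 (adjusted p = 0.0073) and -0.38 ± 0.09 for GPX1 (adjusted p = 0.020). GSR differed by -0.32 ± 0.07 (adjusted p = 0.0098), PRDX4 by -0.29 ± 0.07 (adjusted p = 0.017) and TKT by -0.29 ± 0.07 (adjusted p = 0.013). Without ALDH1B1 replicate 1 the count was 3, beside 2.00% of all genes. The calls of PRDX1, GSTO1 and GSR held with each library left out in turn. For GPX1 the adjusted p was 0.054 to 0.079 without ALDH1B1 replicate 1 or 2, EGFP replicate 1, DMSO replicate 2 or the unnumbered inhibitor library. For PRDX4 it was 0.057 to 0.069 without ALDH1B1 replicate 1, EGFP replicate 1 or DMSO replicate 3, and for TKT 0.054 to 0.060 without ALDH1B1 replicate 1 or 2. PRDX5 had an adjusted p of 0.015 for the difference without EGFP replicate 3, at 0.36, and TXN one of 0.042 without inhibitor replicate 1.

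**Figure D3:**
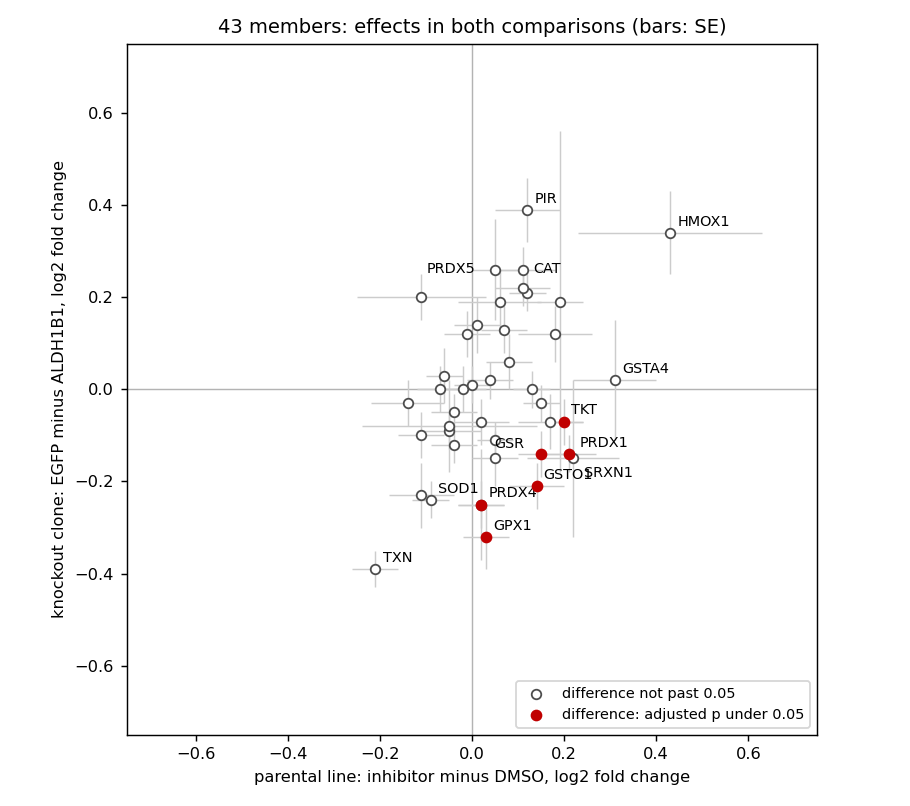
Log2 fold change of each of the 43 genes in the inhibitor comparison (horizontal axis) and the knockout comparison (vertical axis), with standard errors as bars. Filled red points are the 6 genes whose effects differed with an adjusted p under 0.05, all with a lower value for the knockout than for the inhibitor; TXN is the lowest point at -0.21 and -0.39.

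A wider list of 88 other genes of NRF2 regulation, thiol and NADPH metabolism, drug transport and aldehyde reduction gave 9 higher and 10 lower of 79 tested in the knockout comparison, or 24.1% against 17.6% of all genes, and 4 higher and 1 lower of 78 with inhibitor, or 6.41% against 3.99%. The largest rises past the threshold with a mean of at least 5 CPM in the knockout comparison were GGT7, of the gamma-glutamyl transferase family, at 0.61 ± 0.10 (adjusted p = 8.2e-04), TXNIP, the protein that binds and inhibits thioredoxin, at 0.51 ± 0.05 (adjusted p = 3.1e-05), and OPLAH, 5-oxoprolinase, at 0.40 ± 0.08 (adjusted p = 0.0056). The largest falls were TXNDC17, a thioredoxin-like protein, at -0.59 ± 0.10 (adjusted p = 9.1e-04), TRIM16 at -0.30 ± 0.06 (adjusted p = 0.0023) and the small MAF factor MAFF at -0.30 ± 0.09 (adjusted p = 0.042). The MAFF call was lost without any 1 ALDH1B1 library or without EGFP replicate 1 (adjusted p = 0.064 to 0.14). With inhibitor the rises were IDH2, the mitochondrial NADP-dependent isocitrate dehydrogenase, at 0.30 ± 0.05 (adjusted p = 0.0028), DPP3, a peptidase that binds KEAP1, at 0.29 ± 0.07 (adjusted p = 0.028), and CHAC1, which degrades glutathione, at 0.27 ± 0.06 (adjusted p = 0.031). The DPP3 and CHAC1 calls were each lost without DMSO replicate 2 or 3, inhibitor replicate 3 or the unnumbered inhibitor library (adjusted p = 0.068 to 0.15 and 0.057 to 0.17).
TXNIP, the partner of TXN, was the 1 gene of the wider list that fell with inhibitor. It was at 83.4, 92.3 and 95.6 CPM with ALDH1B1 and 126, 129 and 129.6 CPM with EGFP, and at 169, 179 and 171 CPM in DMSO and 134, 135 and 129.9 CPM with inhibitor. TXNIP was thus higher in every EGFP library and lower in every inhibitor library, by 0.51 and -0.39 on the log2 scale, while TXN was lower in both.

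The clone and the parental line differed far more than the groups within either. With ALDH1B1 in the clone, 35 of the 43 genes differed from the parental line in DMSO, 19 higher and 16 lower, and 14 of them by at least 2-fold, 10 higher and 4 lower. Of all 19075 genes, 75.3% differed, 38.0% higher and 37.4% lower, and 37.0% did so by at least 2-fold, 18.6% higher and 18.5% lower. With EGFP in the clone the counts were 36 genes, 20 higher and 16 lower, and 13 by at least 2-fold, 9 higher and 4 lower. Of all genes 75.5% differed, 37.8% higher and 37.7% lower, and 36.7% by at least 2-fold, 19.1% higher and 17.6% lower. The median log2 fold change of the set was 0.12 with ALDH1B1 and -0.02 with EGFP, and the median size 0.53 and 0.47, beside 0.73 and 0.72 over all genes. The clone carries a construct and the parental line was in DMSO, so clonal origin, knockout, construct and culture cannot be told apart, and both comparisons share the DMSO libraries.

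**Figure D4:**
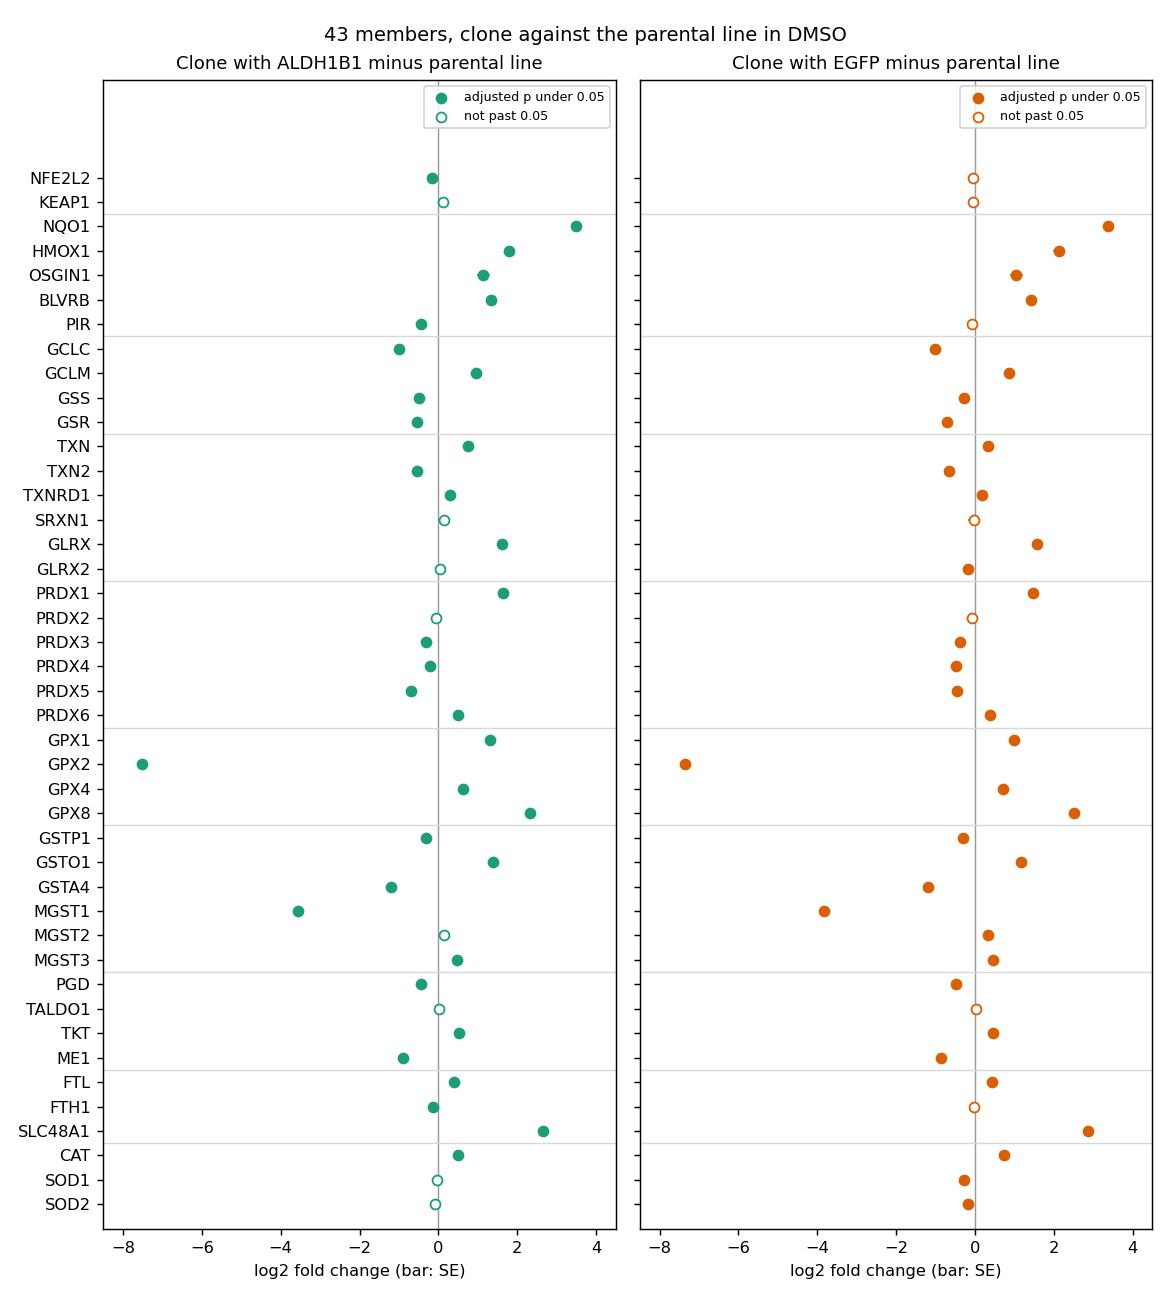
Log2 fold change of each of the 43 genes between the knockout clone and the parental line in DMSO, for the clone with ALDH1B1 (left) and with EGFP (right), with standard errors as bars, on an axis wider than in the plot of knockout and inhibitor effects. Filled points passed an adjusted p of 0.05, 35 and 36 genes; NQO1 lies highest at 3.48 and 3.38 and GPX2 lowest at -7.53 and -7.36.

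NQO1 was the gene with the largest rise of the set. It averaged 269.5 ± 5.7 CPM in the clone with ALDH1B1 and 251 ± 5.0 CPM with EGFP, against 24.1 ± 0.79 CPM in DMSO (SD), and was 11.2-fold and 10.4-fold higher (log2 fold change 3.48 ± 0.06, adjusted p = 2.0e-24, and 3.38 ± 0.06, adjusted p = 3.2e-24). SLC48A1 was 6.34-fold and 7.31-fold higher, GPX8 4.96-fold and 5.65-fold, and HMOX1 3.52-fold and 4.44-fold. PRDX1 was 3.09-fold and 2.77-fold higher, GLRX 3.06-fold and 2.99-fold, and GSTO1 2.61-fold and 2.23-fold. BLVRB was 2.50-fold and 2.69-fold higher, GPX1 2.48-fold and 1.97-fold, and OSGIN1 2.21-fold and 2.07-fold. Every 1 of these was higher in all clone libraries than in all DMSO libraries. GPX2 was the gene with the largest fall, from 110.1 ± 2.8 CPM in DMSO to 0.587 ± 0.28 CPM with ALDH1B1 and 0.669 ± 0.11 CPM with EGFP, 188-fold and 165-fold lower. MGST1 was 11.8-fold and 14.1-fold lower, and GSTA4 2.31-fold and 2.29-fold lower. VIL1, the villin gene, was also far lower in the clone, at 0.145 and 0.472 CPM against 344 CPM in DMSO. EPCAM and CDH1 were lower too. CDX2 was higher, by 0.99 and 1.28 on the log2 scale with ALDH1B1 and EGFP. KRT18 was higher in both clone groups, by 0.28 with ALDH1B1 and 0.12 with EGFP. KRT8 was higher with ALDH1B1 (0.29) and not called with EGFP (0.05). KRT19 was higher with ALDH1B1 (0.35) and lower with EGFP (-0.12). The part of these markers in the result was not tested.
The subunits of glutamate-cysteine ligase moved in opposite directions. GCLC averaged 47.3 ± 0.69 CPM with ALDH1B1 and 95.5 ± 1.7 CPM in DMSO, 2.02-fold lower in the clone (log2 fold change -1.01 ± 0.05, adjusted p = 6.9e-15). GCLM averaged 72.1 ± 1.5 and 37.6 ± 0.49 CPM, 1.92-fold higher in the clone (0.94 ± 0.05, adjusted p = 4.3e-14). With EGFP the log2 fold changes were -1.02 ± 0.05 and 0.86 ± 0.05. GSS and GSR, the other glutathione genes, were lower in the clone, by -0.49 and -0.55 with ALDH1B1 and -0.29 and -0.71 with EGFP. NFE2L2 and KEAP1 differed little: NFE2L2 by -0.16 ± 0.06 with ALDH1B1 (adjusted p = 0.016, but 0.053 to 0.096 without ALDH1B1 replicate 1 or 2) and -0.04 ± 0.06 with EGFP (adjusted p = 0.59), and KEAP1 by 0.12 ± 0.06 (adjusted p = 0.067, and 0.035 without ALDH1B1 replicate 3) and -0.04 ± 0.06 (adjusted p = 0.59). TXN was 1.67-fold and 1.27-fold higher in the clone, and TXNRD1 1.22-fold and 1.13-fold. In the wider list PTGR1, a reductase of prostaglandins and unsaturated aldehydes, MSRB3, a methionine sulfoxide reductase, and NFE2L3, a relative of NFE2L2, rose by 6.49 ± 0.12, 4.21 ± 0.10 and 3.11 ± 0.06 on the log2 scale with ALDH1B1, the largest rises under the same rule. AKR1C3, an aldo-keto reductase, SLC7A11, the cystine importer, and SESN2, sestrin 2, were the largest falls, with log2 fold changes of -8.30 ± 0.15, -3.48 ± 0.09 and -2.72 ± 0.07. With EGFP the same genes led, at 6.54, 4.26 and 3.30 and at -7.49, -3.19 and -2.64.

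**Figure D5:**
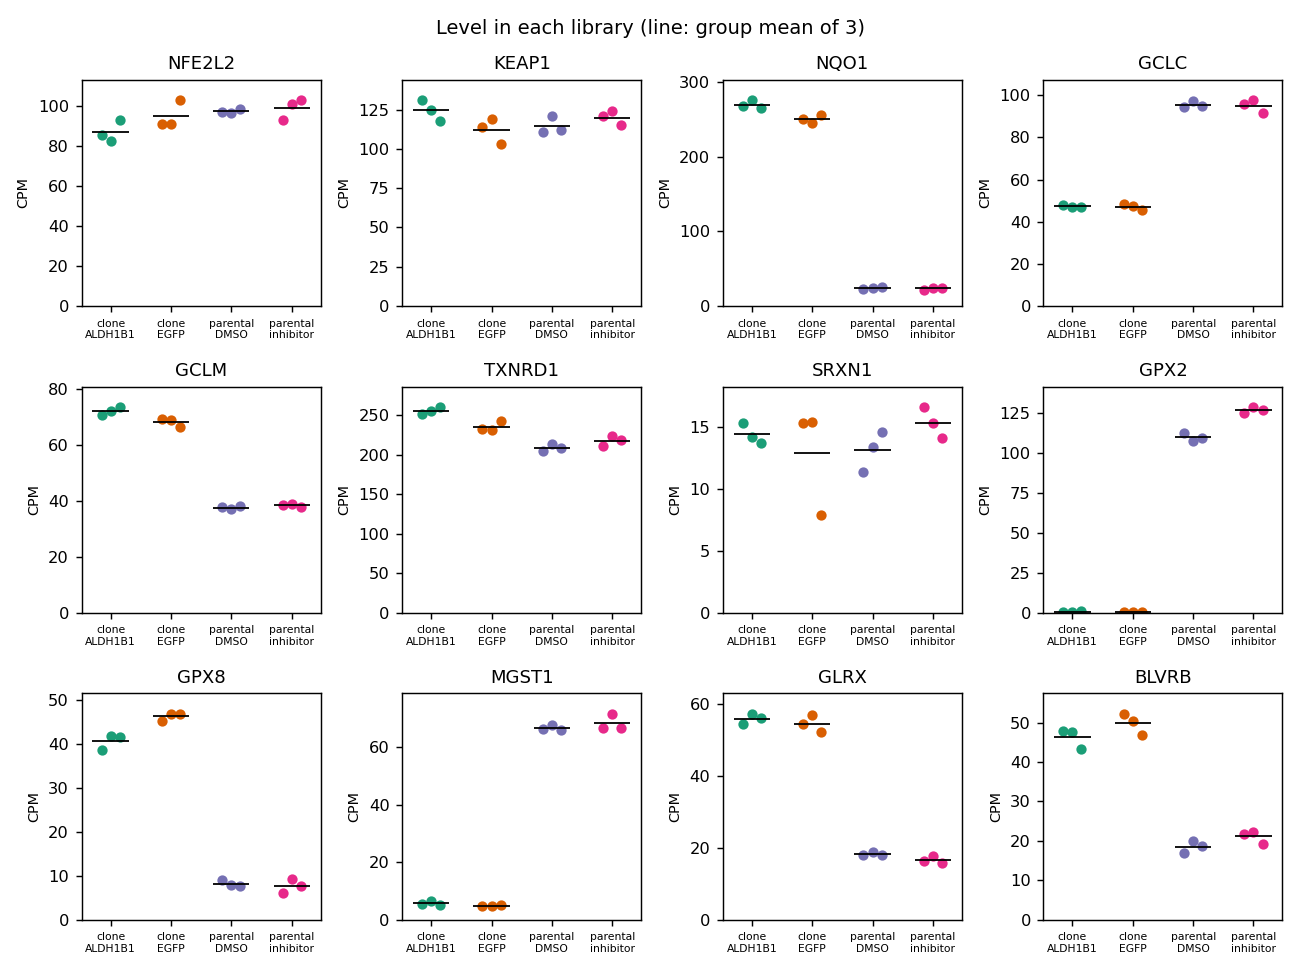
Level in CPM of 12 genes in each of the 12 libraries, in the clone with ALDH1B1, the clone with EGFP, the parental line in DMSO and the parental line with inhibitor; each point is a library and each line the mean of 3. NQO1 lies between 246 and 276 CPM in the clone and between 22.1 and 24.9 CPM in the parental line, GPX2 is under 1 CPM in the clone, and GCLC and GCLM lie on opposite sides.

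Promoter windows were in the RefSeq table for 34 of the 43 genes. The antioxidant response core TGACNNNGC, on either strand, was in 12 of their 47 windows (25.5%), against 13.3% of all windows and 20% of the 105 windows of the wider list. The windows around the match are shown for 6 genes that differed between clone and parental line, with the match in capitals and 10 bases on each side, 5′ to 3′ on the gene's strand. GSTO1 and ME1 hold a further match each, and the one farther upstream is shown. They lie at chr1:93909446-93909474 for GCLM (minus strand), chr14:64942849-64942877 for GPX2 (minus), chr12:16347135-16347163 for MGST1 (plus), chr10:104254656-104254684 for GSTO1 (plus), chr11:67583736-67583764 for GSTP1 (plus) and chr6:83431170-83431198 for ME1 (minus).
GCLM: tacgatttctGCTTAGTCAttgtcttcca
GPX2: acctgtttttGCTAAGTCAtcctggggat
MGST1: ggggacatcgTGACAAAGCaaattgtctg
GSTO1: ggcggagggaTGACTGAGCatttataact
GSTP1: gccggcgccgTGACTCAGCactggggcgg
ME1: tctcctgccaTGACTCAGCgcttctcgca
GSTP1 and ME1 hold the same core as PIR, TGACTCAGC. The 11 genes with a core, KEAP1, GCLM, TXNRD1, GPX2, GSTP1, GSTO1, GSTA4, MGST1, PGD, ME1 and PIR, held 1 that rose, 1 that fell and 9 that did not pass in the knockout comparison. The 23 genes with a window and no core held 3, 4 and 16. With inhibitor the counts were 1, 0 and 10 with a core and 1, 1 and 21 without. Between the clone with ALDH1B1 and the parental line they were 3, 7 and 1 with a core and 13, 5 and 5 without, with medians of -0.44 and 0.47. These are descriptions of letters in 300 bases, and the response elements of several of these genes lie outside such windows.

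Per kilobase of principal transcript, FTL had the highest level of the set in all 4 groups, from 1351 to 1862 CPM per kb. FTH1 and GSTP1 came next, at 615 to 790.1 CPM per kb, and their order turned between groups. TXN was in the fourth place in every group but the parental line with inhibitor, where PRDX2 took it, at 287 against 242 CPM per kb. At the low end GPX2 was last in the clone, at 0.593 and 0.676 CPM per kb, and HMOX1 and OSGIN1 were the lowest of the parental line, at 1.55 and 1.90 CPM per kb in DMSO and 2.13 and 1.86 with inhibitor.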

How the data were processed

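The values used are raw read counts that the authors deposited, as the file headers state, in 1 table for the knockout clone (29667 genes) and 1 for the parental line (30478 genes), with 26814 genes in both. Tools named in the submitters' processing notes are fastp, STAR and DESeq2, with the hg38 genome. How reads were counted, with which annotation and with or without strand, was not stated in the sources used here. Column names gave the groups. An inhibitor column without a replicate number was used as an unnumbered replicate, and 24 other per-sample columns were not used. Rows without a gene name numbered 0.

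The main test was the quasi-likelihood F test of edgeR 4.0.16 (R 4.3.3), after filterByExpr and TMM scaling, with Benjamini-Hochberg adjustment over all genes and a threshold of 0.05. Knockout and inhibitor were fitted on their own 6 libraries, and their difference and the clone against the parental line on all 12 libraries and the shared genes. Standard errors come from the F statistic. Levels are CPM with joint TMM scaling. Other settings were no filter, relative log expression factors, DESeq2 1.42.0, a replicate block, an offset that removes a trend over gene length (mgcv 1.9.3), 1 fit over 12 libraries and each library left out. Scripts were tested on simulated data. Library totals were 32617089 to 39018926, and the spread between replicates exceeded the sampling noise of such totals.

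Coordinates, transcript lengths and shared exons come from GENCODE release 29, whose spans equal those of all 33331 listed genes. Promoter windows come from RefSeq. Members, the wider gene list and tests were chosen with earlier results of these data known. Per-library values are given for 8 core genes (NFE2L2, KEAP1, NQO1, HMOX1, GCLC, GCLM, TXNRD1, SRXN1) and, at the least, for the 10 largest changes past 0.05 in each comparison. From the wider list the 3 largest rises and falls past 0.05 were named, among genes averaging 5 CPM or more. Promoters were to be shown for the 4 called genes with the smallest p, and 3 are. Results for 2 genes outside the set are not reported here.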

Additional observations from a re-analysis of the deposited data

Results flagged for a closer look

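The test of the difference between the knockout and the inhibitor effect passed for genes of the set and of the wider list (edgeR, interaction over 12 libraries). Cell background, duration and mode of ALDH1B1 loss cannot be told apart in it. In the set these were GSR (-0.32 on the log2 scale), PRDX1 (-0.38), PRDX4 (-0.29), GPX1 (-0.38), GSTO1 (-0.38) and TKT (-0.29). GSR, PRDX1 and GSTO1 lay lower with EGFP than with ALDH1B1 and higher with inhibitor than with DMSO, though the inhibitor side did not pass for any of them. In the wider list those reported are SQSTM1 (-0.30), which encodes the autophagy receptor p62 that binds KEAP1, DPP3 (-0.45), IDH1 (0.37), the cytosolic NADP-dependent isocitrate dehydrogenase, SLC40A1 (1.09), the iron exporter, and TXNIP (0.88). TXNIP was called in both comparisons with opposite signs, and its difference kept an adjusted p of at most 4.9e-05 under 18 alternatives. The SQSTM1 call was lost without any 1 of 4 libraries, with an adjusted p of 0.054 to 0.064. SLC40A1 was at 1.95 ± 0.17 CPM with ALDH1B1 and 5.15 ± 0.061 CPM with EGFP.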

How the results depend on the processing

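No result changed sign while called under any alternative. In the knockout comparison 9 of the 14 calls (GSS, TXN, PRDX4, GPX1, GSTO1, SLC48A1, CAT, SOD1 and PIR) were kept under all 13 alternatives, and with a library left out the genes called higher numbered 4 to 10 and lower 5 to 11. Without EGFP replicate 3 the set had 21 calls, 10 of them higher, beside 22.2% of all genes. With inhibitor the 2 genes called higher became 4 with no filter, 5 with DESeq2, 4 in 1 fit over 12 libraries and 0 to 3 with a library left out, and the 1 called lower became 0 with the length trend removed and 0 to 1 with a library left out. The 6 differences between effects ranged from 3 to 8 with a library left out. Over all genes, calls ran from 1371 to 4102 around 3059 for the knockout, from 171 to 1402 around 712 for the inhibitor and from 392 to 1436 around 974 for the difference. Clone against parental line gave 33 to 35 and 35 to 36 genes. The replicate numbers did not pair the libraries, since same-numbered libraries correlated at -0.03 to 0.02. As a replicate block they gave 18 calls for the knockout, 0 higher and 1 lower for the inhibitor (1 higher and 0 lower with the length trend also removed) and 3 differences, with the unnumbered library and DMSO replicate 2 left out. Of uncalled values, 39 of 10 genes (knockout) and 30 of 11 (inhibitor) changed sign between settings, all from genes within 0.19 of 0 on the log2 scale. The causes of these changes were not tested. In the clone GPX2 rests on 13 to 33 reads per library.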
